A study of Saccharomyces cerevisiae with 11 samples.

Results

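The cytoplasmic ribosome of budding yeast is built from ribosomal RNA and the products of the RPL, RPS and RPP genes, and 137 such genes are described here out of 6002 nuclear protein-coding genes of the R64 annotation. Members were taken by symbol (RPL, RPS or RPP followed by a number), which leaves out the mitochondrial ribosomal proteins. The rule matched 138 symbols, and RPP1 was set apart because it encodes a protein of the RNA processing enzymes RNase P and RNase MRP. Of the 137 genes, 81 encode proteins of the large subunit (the P stalk proteins included) and 56 encode proteins of the small subunit. An intron lies between start and stop codon in 89 genes and in none of the other 48. The set holds 59 A copies, 59 B copies and 19 genes with no lettered partner.

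Ribosomal protein genes are among the most heavily transcribed genes of RNA polymerase II in growing yeast, and most of them are driven by promoters bound by Rap1, Fhl1 and Ifh1. They hold a large part of all introns of this intron-poor genome, and most of their proteins are encoded by a pair of genes left from an old duplication. Cbp20 and Cbp80 form the nuclear cap-binding complex, which sits on the capped 5′ end of nascent RNA. Rnt1 is the yeast RNase III, an endonuclease that cuts RNA hairpins closed by a loop of the form AGNN.

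The data were 4 lists of ChIP-seq peaks, 2 for Cbp20 and 2 for Rnt1, from a series of 11 samples whose other 7 samples were not analysed here. Both strains were MATa, with his3delta_1, leu2delta_0, met15delta_0 and ura3delta_0 alleles, and grew in YPD at 30 °C. The libraries labelled Cbp20 carry CBP80-myc13::NAT in their genotype label, and the Rnt1 libraries carry RNT1-myc13::NAT, and an anti-myc antibody was used for both. By that genotype the tag is on Cbp80, the partner of Cbp20 in the cap-binding complex, so the values called Cbp20 here, after the sample titles, may be those of Cbp80. The lists held 3801 and 3648 peaks for Cbp20, and 1238 and 1741 peaks for Rnt1. Peaks covered 23.1% and 21.6% of the nuclear genome for Cbp20, and 5.92% and 9.98% for Rnt1. Each list gives only where a peak begins and ends, so there is no height, and depth is unknown. No list of an untagged strain was used, and whether signal of highly transcribed genes rose above such a control was not tested. Nothing in the labels says that the replicates came from separate cultures, so the spread between them may be technical.

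The sequences below show the landmarks to which the Rnt1 peak edges are referred in genes with an intron. Each intron is given by its first 20 bases, with the splice site in capitals, and by the window around its branch point, with TACTAAC in capitals. All were read 5′ to 3′ on the transcribed strand of the RefSeq R64 genome. The intron of RPS0A was mostly bare of Rnt1 in both lists and that of RPL20B in replicate 1 alone, while the annotated intron of RPS22B lay wholly under Rnt1 peaks. Its transcript is known as a substrate of the enzyme, in a further intron before the start codon.
RPS0A 5′ splice site, chrVII:920665-920684, plus strand: GTATGTtatactcattcccg
RPS0A branch point, chrVII:921080-921102, plus strand: atcttttaTACTAACtttttctt
RPL20B 5′ splice site, chrXV:901174-901193, minus strand: GTATGTaatagaatgtattg
RPL20B branch point, chrXV:900796-900818, minus strand: tgcaagttTACTAACaagaataa
RPS22B 5′ splice site, chrXII:856575-856594, plus strand: GTATGTtccaactatttttc
RPS22B branch point, chrXII:857026-857048, plus strand: ttcttcaaTACTAACatttactc

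Each of the printed introns holds both GTATGT and TACTAAC, whatever its Rnt1 coverage. The counts that follow were not split by Rnt1 coverage. Of the 91 annotated introns of ribosomal protein genes, 68 (74.7%) began with GTATGT and 85 (93.4%) held TACTAAC. Of 190 introns of other coding genes, 137 (72.1%) began with GTATGT and 147 (77.4%) held TACTAAC. The ribosomal protein introns were long, with a median of 408 bp against 97 bp for the other introns. Introns that lie before the start codon are not part of this annotation and were not counted.

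Every one of the 137 genes had a peak in all 4 lists. The same was found for 44.9% of all coding genes in both Cbp20 replicates and for 12.9% in both Rnt1 replicates. Peaks over at least 50% of the gene in both replicates were found on 137 genes for Cbp20, where 27.4% of all coding genes passed, and on 130 genes for Rnt1, where 6.60% passed. In each Cbp20 list a single peak lay over each gene, and in the Rnt1 lists 3 genes and 1 gene had more than 1 peak. Peaks on ribosomal protein genes were long, with medians of 1165 and 1058 bp for Cbp20, and 881 and 986 bp for Rnt1. The medians over all peaks of those lists were 484 and 498 bp for Cbp20, and 349 and 444 bp for Rnt1.

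The mean share of a ribosomal protein gene under Cbp20 peaks was 99.97% and 99.88% in the 2 replicates, against 82.3% and 92.2% under Rnt1 peaks. Cbp20 peaks thus covered 12.6 percentage points more of the genes, and the groups of libraries did not overlap (99.92% ± 0.062 for Cbp20 and 87.3% ± 7.0 for Rnt1, SD, n = 2 each). The difference was 7.68 points without Rnt1 replicate 1 and 17.6 points without Rnt1 replicate 2, so its size depended on the Rnt1 list. A two-sided exact permutation test over the 4 libraries gave p = 0.333, the smallest value that 2 libraries against 2 allow, with each Cbp20 library above each Rnt1 library. Over the 5864 other coding genes, the mean shares were 30.4% and 29.03% for Cbp20, and 5.26% and 9.89% for Rnt1. Ribosomal protein genes exceeded them by 70.2 ± 0.89 percentage points for Cbp20 and by 79.7 ± 3.73 percentage points for Rnt1 (SD, n = 2 each), far above the spread between replicates.

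The whole gene lay under Cbp20 peaks in both replicates for 122 of the 137 genes (6.65% of all coding genes did), and under Rnt1 peaks for 26 (1.58%). The 15 genes that were not wholly under Cbp20 peaks still had at least 94.8% of their length covered. The lowest of them was RPL1A, which encodes a large-subunit protein, with 98.8% and 94.8%. With Rnt1 the shares spread much more widely, between 32.0% and 100% in replicate 1 and between 19.5% and 100% in replicate 2.

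**Figure D1:**
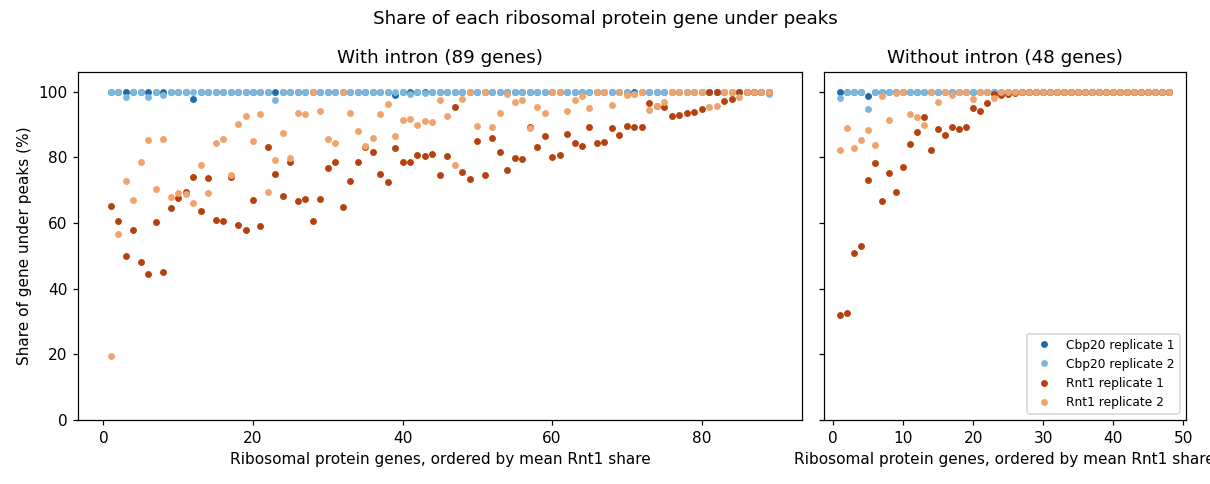
Share of each ribosomal protein gene under peaks (y axis, percent), with the 89 genes with an intron on the left and the 48 without on the right, each ordered by mean Rnt1 share; points are single libraries. The Cbp20 points lie between 94.8% and 100%, while the Rnt1 points reach down to 19.5% among intron genes and to 32.0% among genes without an intron.

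Of the 26 genes wholly under Rnt1 peaks, the first 10 in order of systematic name were RPS8A, RPL32, RPL4A, RPS29B, RPS13, RPP2B, RPS8B, RPS26B, RPL29 and RPL24A. These encode proteins of both subunits, and RPS13 is the only one of the 10 with an annotated intron between start and stop codon. At the other end stood RPS30A, which encodes a small-subunit protein, with 65.1% and 19.5% of its 622 bp under Rnt1 peaks. RPL15B, a large-subunit gene with no intron, had 32.0% and 82.3%, and its Rnt1 peaks left both ends of the gene bare, 119 and 84 bp at the 5′ end and 299 and 25 bp at the 3′ end. RPS0A had 60.5% and 56.8%, the closest replicate values among the lowest 5. RPL38, a gene of 237 bp without an intron, had 32.5% and 89.03%, and RPS21A had 49.8% and 72.7%. For RPS30A, RPL15B and RPL38 the replicates differed by more than 45 percentage points, so their rank rests on a single list. All 5 had at least 98.05% of their length under Cbp20 peaks in both lists.

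Peak edges gave the clearest picture of where the proteins differed. The first coding base lay under a Cbp20 peak in 133 and 129 of the 137 genes, and in 126 genes in both replicates, against 11.2% of all coding genes. For Rnt1 it was covered in 29 and 53 genes, and in 27 in both replicates, against 2.47% of all coding genes. The last coding base was covered in 133 genes in both Cbp20 replicates (19.0% of all coding genes) and in 120 genes in both Rnt1 replicates (7.21%). Rnt1 peaks thus left many 5′ ends bare that Cbp20 peaks covered, while the 3′ ends of most genes lay under peaks of both proteins.

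The upstream edge of the Cbp20 peak lay further upstream than that of the Rnt1 peak, in all 4 pairings of libraries, in 107 of 137 genes (78.1%). Rnt1 lay further upstream in all pairings in a single gene, RPL28, a large-subunit gene mutated in cycloheximide-resistant yeast. There the Cbp20 peaks reached 67 and 70 bp past the start codon and the Rnt1 peaks 226 and 310 bp. Among 612 other coding genes with peaks in all 4 lists, the Cbp20 edge was upstream in 496 (81.1%) and the Rnt1 edge in 31 (5.07%). The order of the edges on ribosomal protein genes was therefore near that of other genes bound by both proteins.

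Cbp20 peaks began close to the start codon. At 100 bp before it, 15 and 14 of the 137 genes lay under a Cbp20 peak, and 14 and 30 under a Rnt1 peak. At the first coding base these counts were 133 and 129 for Cbp20, and 29 and 53 for Rnt1. At 100 bp into the gene, Cbp20 peaks covered all 135 genes of that length in both lists, and Rnt1 peaks covered 58 and 104. The rise that Cbp20 peaks completed within about this distance was still under way for Rnt1, in replicate 1 more than in replicate 2.

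Where the first base was covered, the median reach of the peak past the 5′ end was 32 and 44 bp for Cbp20, and 75 and 102 bp for Rnt1. The Rnt1 medians come from only 29 and 53 genes, so they describe the minority of genes that Rnt1 peaks cover from the start. In the 29 genes covered there by Rnt1 in replicate 1, the Cbp20 peak reached further in 26 and 27 of them, by medians of 35 and 57 bp in the 2 Cbp20 lists. In the 53 of Rnt1 replicate 2 it reached further in 25 and 33, with median differences of 0 and 20 bp. The mean of the 2 Rnt1 medians, 88.5 bp, was 56.3 bp without the 13 genes that have a snoRNA, snRNA or tRNA gene within 500 bp. It was 143 bp when kept to genes with no other gene within 500 bp upstream, while the Cbp20 mean of 38.0 bp moved by less than its spread in both cases. By the mean of the 2 replicates, among genes whose first base was covered in both, the longest 5′ reach for Cbp20 was that of RPS22B, at 594 and 584 bp, with 490 and 486 bp for Rnt1. The shortest was that of RPS11B, at 3 and 1 bp for Cbp20. For Rnt1 it was longest at RPS29A (432 and 610 bp) and shortest at RPS22A (6 and 13 bp).

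Past the 3′ end, the median reach was 308 and 231 bp for Cbp20, and 271 and 273 bp for Rnt1. Gene by gene, the peak of Cbp20 replicate 1 reached further than that of Rnt1 in 113 of 132 and 87 of 121 genes for the 2 Rnt1 replicates, by a median of 57 bp in each. That of Cbp20 replicate 2 reached further in 72 of 130 and 68 of 121 genes, by medians of 7.5 and 11 bp. Between the Cbp20 replicates the first reached further in 101 of 133 genes, by a median of 36 bp. Other coding genes had medians of 222 and 131 bp for Cbp20, and 281 and 276 bp for Rnt1. The Cbp20 medians on ribosomal protein genes were thus longer within each list, and the Rnt1 medians were close to those of other genes. By the mean of the 2 replicates, among genes whose last base was covered in both, the longest reach for each protein was that of RPL41A, the 78 bp gene of the smallest ribosomal protein, where one peak ran on for 3624 and 3617 bp in the Cbp20 lists and for 608 and 3119 bp in the Rnt1 lists. The shortest mean reach was that of 20 and 17 bp at RPL15B for Cbp20, and 11 and 1 bp at RPL21A for Rnt1. Most members have close neighbours, since 108 of the 137 have another annotated gene within 500 bp downstream, so a long reach can include the neighbour's own peak.

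**Figure D2:**
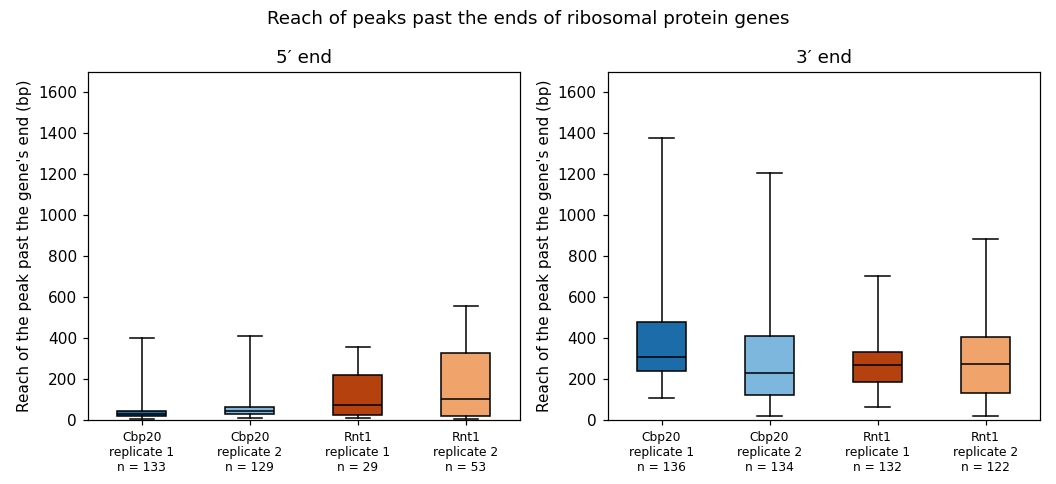
Reach of peaks past the 5′ end (left) and the 3′ end (right) of ribosomal protein genes in bp, for genes whose terminal base is covered; boxes span the quartiles, lines mark medians and whiskers the 5th and 95th percentiles. Medians at the 5′ end are 32 and 44 bp for Cbp20 and 75 and 102 bp for Rnt1, and at the 3′ end all 4 lie between 231 and 308 bp.

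Among the groupings by subunit, intron and A or B copy, the presence of an intron went with the widest difference in covered share. That difference in share was seen for Rnt1 alone. Genes with an intron had 78.7% and 89.5% of their length under Rnt1 peaks, and genes without had 89.2% and 97.2%. The difference of -9.10 ± 1.98 percentage points (SD, n = 2) was beyond the replicate spread. Under Cbp20 peaks the shares were 99.96% and 99.89% with an intron and 99.97% and 99.85% without. The difference of 0.014 ± 0.039 percentage points is within the spread. Cbp20 shares lay near 100% in both classes, where a difference could hardly show. Upstream of the gene the classes did differ for Cbp20. At 100 bp before the start codon, Cbp20 peaks covered 2 and 2 of 89 genes with an intron. Of the 48 without, they covered 13 and 12.

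The uncovered part lay mostly at the 5′ end. In genes with an intron, a median of 175 and 51 bp passed between the start codon and the first base under a Rnt1 peak, against 3 and 0 bp in genes without. The first coding base was covered in both Rnt1 replicates in 5 of 89 genes with an intron and in 22 of 48 without. At 100 bp into the gene, 22 and 58 of the 89 intron genes lay under a Rnt1 peak (24.7% and 65.2%), against 36 and 46 of 46 genes without an intron (78.3% and 100%). At 300 bp the shares were 92.1% and 96.6% with an intron and 100% and 100% among the 40 genes that long without. The order was the same in both replicates, but the distance was more than 3 times longer in replicate 1 than in replicate 2.

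Genes with an intron are longer, with a median of 851 bp against 498 bp. Kept to lengths found in both classes, 541 to 1164 bp, the median bare stretch was 176 and 51 bp in 85 genes with an intron and 25 and 0 bp in 21 genes without. The mean covered shares were then 78.4% and 89.6% with an intron and 90.1% and 97.1% without. The presence of an intron and the other properties of these promoters cannot be told apart in these lists. Introns before the start codon are not annotated, so a gene with only such an intron counts here as without.

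**Figure D3:**
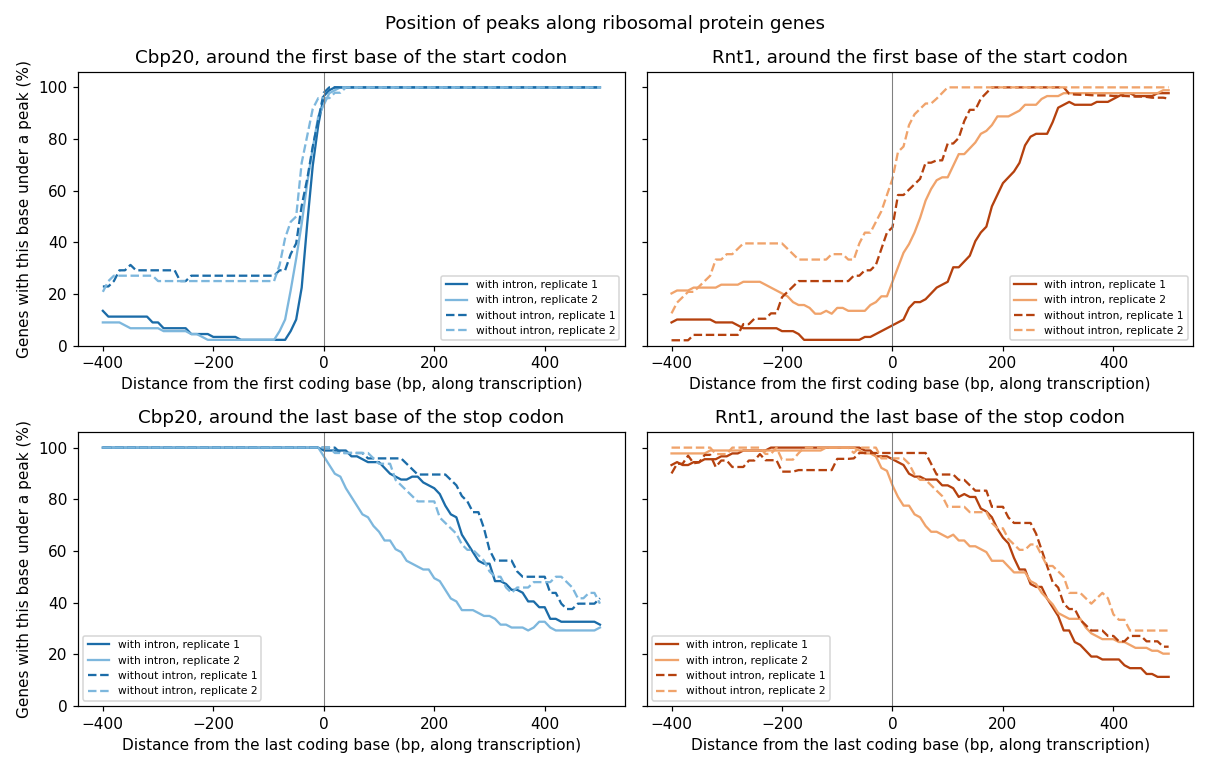
Percent of ribosomal protein genes (y axis) with a given base under a peak, by distance in bp from the first coding base (top) or the last coding base (bottom), for Cbp20 (left) and Rnt1 (right); solid lines are genes with an intron, dashed lines genes without, and beyond a short gene's length that gene is left out. At 100 bp into the gene all Cbp20 lines are at 100%, and the Rnt1 lines are at 24.7% and 65.2% with an intron and at 78.3% and 100% without.

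Within the 89 genes, Rnt1 peaks most often began inside the intron, in 72 genes in replicate 1 and in 53 in replicate 2. They began at or before the first coding base in 7 and 22 genes, within exon 1 in 9 and 13, and within the last exon in 1 and 1. Exon 1 is short in these genes, with a median of 15 bp and a range of 1 to 309 bp. Where the edge lay inside an intron with TACTAAC, it was a median of 180 bp before the motif in replicate 1 and 281 bp before it in replicate 2. It preceded the motif in 65 of 69 and in 50 of 50 genes. The motif lies near the 3′ end of these introns, so an edge placed anywhere inside one would mostly precede it. The share expected from position alone was not computed. The branch point and the 3′ splice site were therefore inside the Rnt1 peak in nearly all of these genes.

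By part, introns lay under Rnt1 peaks for 62.9% and 83.6% of their length on average, and exons for 93.8% and 95.5%. The mean difference of -21.4 ± 13.4 percentage points (SD, n = 2) was negative in both replicates, at -30.9 and -11.96. Exon 1 was the least covered part, at 12.5% and 33.8%, and the last exon the most covered, at 99.2% and 98.6%. The intron was below the exons in 70 and 49 genes and above them in 13 and 22. Since exon 1 is short in most of these genes, this contrast is not independent of the bare 5′ stretch given above. Under Cbp20 peaks introns (99.95% and 99.96%) and exons (99.97% and 99.81%) could not be told apart. In the 22 other intron genes with Rnt1 peaks in both replicates, introns were also below exons, at 40.2% and 44.5% against 61.7% and 74.8%. As whole genes, those 22 were not less covered by Rnt1 than the 616 other genes without an intron that had such peaks. Mean shares were 55.6% and 67.02% with an intron and 47.05% and 66.65% without. Median bare 5′ stretches were 235.5 and 146 bp with and 278.5 and 100.5 bp without, so their order changed between the lists.

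RPS0A showed the widest gap, with 14.5% and 13.0% of its intron and 88.1% and 83.0% of its exons under Rnt1 peaks. The edge lay 389 and 396 bp into its 455 bp intron, 34 and 27 bp before the TACTAAC of the printed branch window. The replicates thus placed it within 7 bp of each other. In RPL20B, the intron had 13.4% and 65.3% and the exons 99.8% in both, with the edge 14 and 235 bp before its branch point motif. RPS24B, RPS4B and RPL21B followed, with intron minus exons at -57.1, -56.8 and -56.6 percentage points as means of the 2 replicates.

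The opposite was seen in a few genes. RPS7B had 100% of its intron under Rnt1 in both lists and 82.6% and 82.2% of its exons, since the peak began 100 and 102 bp into an exon 1 of 144 bp. RPL7B, RPL18B and RPL14A also had more of the intron than of the exons covered, by means of 11.9, 7.47 and 7.43 percentage points. In 13 of the 89 genes the intron lay wholly under Rnt1 peaks in both replicates. They included RPL7B, RPL14A, RPL14B, RPL16A, RPL17A, RPL28, RPL31B, RPP1B, RPS7B, RPS13, RPS14B and RPS22B. Of these, RPL28, RPS13, RPS14B and RPS22B were also covered over the whole gene in both lists.

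**Figure D4:**
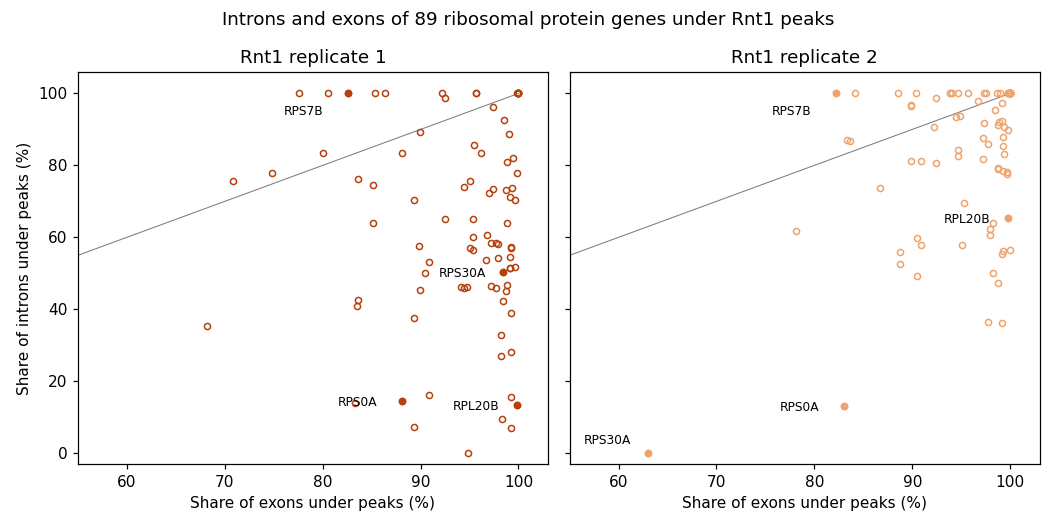
Share of introns (y axis, percent) against share of exons (x axis, percent, from 55) under Rnt1 peaks in the 89 intron genes, with replicate 1 on the left, replicate 2 on the right and the line of equal shares in grey; filled points are the named genes. Most points lie below the line, with RPS0A at 14.5% and 13.0% of its intron, while RPS7B has 100% of its intron under peaks in both.

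RPS22B, whose transcript is known to be cut by Rnt1, had 100% of the annotated intron under Rnt1 peaks in each list. A search for hairpins with an AGNN loop and 2 arms of 10 bases (G-T pairs allowed, at most 1 unpaired position, no bulges) found one in 3 of 91 ribosomal protein introns, in RPL23B, RPL7A and RPS10B, and in 2 of 190 other introns (3.30% and 1.05%). It found none in the annotated intron of RPS22B, which says only that no such unbulged stem is in it. The 2 percentages refer to unequal lengths searched, since ribosomal protein introns had a median of 408 bp and other introns 97 bp.

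Large- and small-subunit genes differed little in the share covered, and more upstream of the start codon. Their mean shares under Cbp20 peaks were 99.94% and 99.83% for the large subunit and 100% and 99.94% for the small, and under Rnt1 peaks 82.9% and 92.8% for the large subunit and 81.6% and 91.5% for the small. The Rnt1 difference was 1.27 percentage points in both replicates, small beside the 9.90 points by which the replicates themselves differed. It was 2.93 without genes near a snoRNA, snRNA or tRNA gene and 0.52 in genes of mostly unique sequence. Where the first base was covered, the median Rnt1 reach past the 5′ end was 35 and 58 bp in large-subunit genes (14 and 28 genes) and 185 and 275 bp in small-subunit genes (15 and 25 genes), the same order in both lists. Without an intron it was 31 and 60 bp in the large subunit (11 and 17 genes) and 195 and 319 bp in the small (11 and 14). With an intron it was 39 and 45 bp in the large (3 and 11) and 35 and 169 bp in the small (4 and 11). The order was thus not kept there in replicate 1. For Cbp20 the median was 32 and 45 bp in the large subunit and 32.5 and 44 bp in the small. These Cbp20 medians come from nearly all genes, so the 2 proteins are not compared on the same genes here. At 100 bp before the start codon, Cbp20 peaks covered 5 and 4 of 81 large-subunit genes and 10 and 10 of 56 small-subunit genes. Rnt1 peaks covered 5 and 14 of the large and 9 and 16 of the small. The small subunit thus had the larger share covered there for both proteins. The last base of the gene was covered in both Rnt1 replicates in 70 of 81 large-subunit and 50 of 56 small-subunit genes. Within each subunit, genes with an intron were less covered by Rnt1, with 79.9% and 90.5% against 88.5% and 97.1% in the large subunit and 76.8% and 88.2% against 90.1% and 97.5% in the small. This order held in both subunits and both lists.

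The A and B copies as groups did not differ beyond the replicate spread. Mean shares under Rnt1 peaks were 80.3% and 91.7% for A copies and 81.5% and 90.9% for B copies, a difference of -0.18 ± 1.43 percentage points whose sign changed between replicates. It was 0.66 without genes near a snoRNA, snRNA or tRNA gene. For Cbp20 the difference was -0.076 ± 0.11 percentage points. The 19 genes with no partner had 91.2% and 98.2% under Rnt1 peaks, and 14 of them have no intron. Single pairs did differ. Of 59 pairs, the A copy was more covered by Rnt1 in both replicates in 22 and the B copy in 17, while 6 were equal in both, 10 changed order between replicates and 4 were equal in a single list. The median size of the difference within a pair was 13.0 and 6.16 percentage points.

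RPL15 differed most, with 99.7% and 100% of RPL15A under Rnt1 peaks against 32.0% and 82.3% of RPL15B. RPS0 went the other way, with 60.5% and 56.8% of RPS0A and 86.7% and 100% of RPS0B, with A minus B at -26.1 and -43.3 points. RPL31A had 45.1% and 85.5% and RPL31B 100% and 95.2%. RPL36A had 57.7% and 66.8% and RPL36B 73.4% and 100%. RPS30A had 65.1% and 19.5% and RPS30B 60.2% and 70.3%, so the order of this last pair depended on the list. The first 4 of these pairs kept their order in both replicates.

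**Figure D5:**
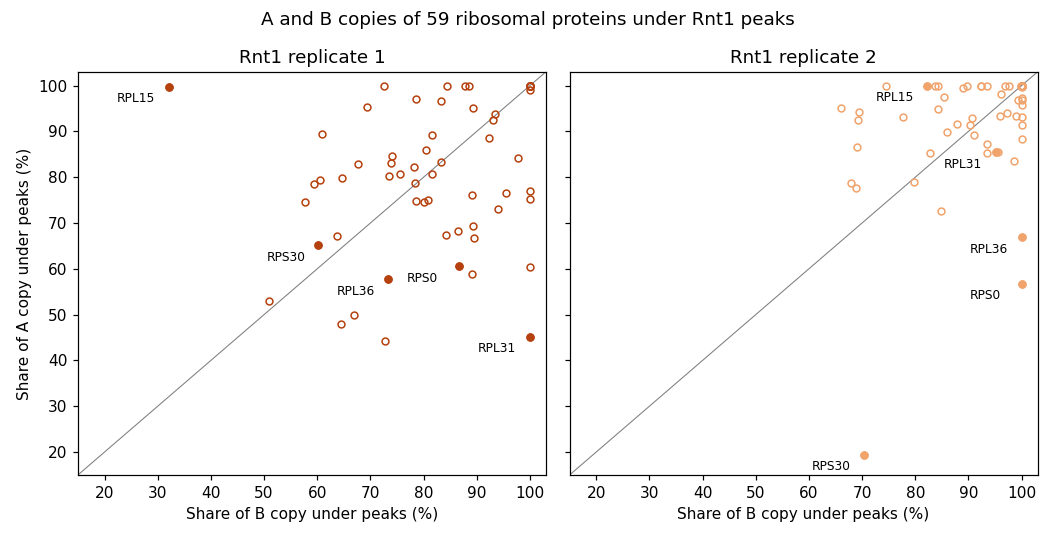
Share of the A copy (y axis, percent) against the B copy (x axis, percent) under Rnt1 peaks for 59 pairs, both axes from 15%, with replicate 1 on the left, replicate 2 on the right and the line of equal shares in grey; filled points are the 5 pairs that differ most. RPL15 lies above the line in both panels and RPS0, RPL31 and RPL36 below it, while RPS30 changes sides.

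Only uniquely mapped reads entered the peaks, and the share of unique sequence is therefore given here beside the covered shares. The introns of these genes were unique throughout, with 100% of their 50-base windows found once in the nuclear genome, while the last exons were unique at 85.6% of windows on average. In 32 of the 137 genes fewer than 90% of windows were unique. Their mean covered shares were 99.86% and 99.76% for Cbp20, and 84.5% and 93.4% for Rnt1. The 105 more unique genes had 100% and 99.92% for Cbp20, and 81.7% and 91.9% for Rnt1. In both lists of each protein, the less unique genes thus had the lower mean under Cbp20 peaks and the higher mean under Rnt1 peaks. The part of shared sequence in these shares and in the differences between copies was not tested.

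The pair with the least unique sequence was RPL1, whose copies differ at 4 of 654 bases and had 19.0% unique windows each. It was also the single pair that differed the same way in both Cbp20 replicates, with 98.8% and 94.8% of RPL1A and 100% and 100% of RPL1B. The bare stretch was 8 and 34 bp long, at the 5′ end of RPL1A. The first 30 coding bases of both are given here because the bare stretch begins with them (in replicate 2 it runs 4 bp further), with the 2 differing bases in capitals.
RPL1A, chrXVI:135790-135819, plus strand: atgtcCaagatcacTtcttctcaagtcaga
RPL1B, chrVII:254641-254670, plus strand: atgtcTaagatcacCtcttctcaagtcaga
Under Rnt1 peaks RPL1A had 73.1% and 88.4%, and RPL1B had 94.0% and 100%. The next largest Cbp20 differences between copies were those of RPL40, RPL35, RPL15 and RPL23, with means of -1.28, 1.11, 0.98 and -0.82 percentage points, and each of them came from 1 list alone.

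Where 2 ribosomal protein genes lie head to head, Cbp20 peaks left most of the interval bare in 4 of 5 cases, all but that of RPL24A and RPL30. No annotated gene lies between these neighbours. Between RPS16B and RPL13A, 37 and 53 of 634 bp lay under Cbp20 peaks and 0 and 0 bp under Rnt1 peaks. Between RPS22A and RPL39, it was 42 and 71 of 630 bp for Cbp20, and 6 and 216 bp for Rnt1. Between RPL13B and RPS16A, it was 44 and 97 of 720 bp for Cbp20, and 0 and 413 bp for Rnt1. Between RPS15 and RPP2A, it was 65 and 112 of 719 bp for Cbp20, and 0 and 33 bp for Rnt1. Between RPL24A and RPL30, whose interval is 1156 bp, it was 571 and 604 bp for Cbp20, and 271 and 578 bp for Rnt1. In each interval a stretch of at least 552 bp was bare in both Cbp20 lists.

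The 2 head-to-head intervals of the RPL13 and RPS16 genes hold the motif ACCCNNACA, a core of the sequence that Rap1 binds, on both strands. The motif was searched on both strands of the 500 bp before each start codon and was found for 54 of 137 ribosomal protein genes (39.4%), against 329 of 6002 coding genes (5.48%). A match is a description of the letters and not a site shown to be bound. The windows are printed with the motif in capitals, as landmarks for the bare stretch.
RPS16B-RPL13A interval, chrIV:308135-308159, minus strand: gaaaaaacACCCATACAtgttgaaa
RPS16B-RPL13A interval, chrIV:308198-308222, plus strand: aatatgtgACCCATACAtttcctgt
RPL13B-RPS16A interval, chrXIII:551522-551546, minus strand: cattacgcACCCATACAtttatagt
RPL13B-RPS16A interval, chrXIII:551613-551637, plus strand: atattggcACCCATACAttataaaa
All 4 matches lay outside the Cbp20 peaks of both lists and outside those of Rnt1 in replicate 1. In Rnt1 replicate 2 both matches of the RPL13B-RPS16A interval lay under a peak and both matches of the RPS16B-RPL13A interval did not.

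Tail to tail, the picture was the reverse. The 413 bp between RPL13A and RPP1A and the 298 bp between RPS14B and RPS22A lay wholly under peaks in all 4 lists. In these neighbours the 3′ ends of the genes face each other.

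Non-coding neighbours bear on the Rnt1 values, since snoRNA precursors are the best known substrates of the enzyme. A snoRNA or tRNA gene lies within 500 bp of, or inside, 13 of the 137 genes. RPL7A (SNR39), RPL7B (SNR59) and RPS22B (SNR44) host a snoRNA inside an intron, and each of these snoRNA genes lay wholly under peaks in all 4 lists. The intron share under Rnt1 was 92.6% and 95.5% in RPL7A, 100% and 100% in RPL7B and 100% and 100% in RPS22B. Downstream of RPS8A, RPS14A, RPL31A and RPL42B, the snoRNA genes SNR56, SNR65, SNR63 and SNR32 lay on the opposite strand. In each of these cases one peak spanned the gene and its neighbour in all 4 lists. Upstream, RPS14A also has SNR189 and RPL7A has SNR39B. The others were RPL12A (SNR80), RPL27B (SNR13), RPL36A (SNR11), RPS26B (SNR4), RPS29A (SNR34) and RPS7B (a tRNA gene). Apart from the Rnt1 reach past the 5′ end and the Rnt1 differences between subunits and between copies, given above, leaving out the 13 genes moved the mean shares, their differences and the median reaches by less than the spread between replicates.

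Other gene lists tied to ribosomal proteins are given beside the shares of all coding genes with a peak in both replicates, 44.9% for Cbp20 and 12.9% for Rnt1. Of 56 mitochondrial ribosomal protein genes, 29 had a Cbp20 peak in both replicates and 0 a Rnt1 peak in both, and 2 had a Rnt1 peak in replicate 2. Of 10 genes for chaperones of ribosomal proteins, 9 had a Cbp20 peak in both replicates (all but TSR2) and 0 a Rnt1 peak in both. Of 6 genes for transcription factors of ribosomal protein genes, FHL1, HMO1, RAP1 and SFP1 had a Cbp20 peak in both replicates, and HMO1 alone a Rnt1 peak in both, over 45.5% and 62.5% of the gene. SFP1 had a Rnt1 peak in replicate 2 alone, over 55.4% of the gene. With 10 and 6 genes, the Rnt1 counts of 0 and 1 are too small to be set apart from that share. RPP1, which the symbol rule matched, had 84.8% and 90.1% under Cbp20 peaks and none of its length under Rnt1 peaks.

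The translation elongation factor genes were the list most like the ribosomal protein genes. Of 9, 8 had a Cbp20 peak in both replicates and 7 a Rnt1 peak in both. TEF1, TEF2, EFT2 and YEF3 lay wholly under peaks in all 4 lists, and EFB1, which has an intron, had 75.7% and 82.3% under Rnt1 peaks. HEF3, a copy of YEF3 that is hardly used in growing cells, was bare in all 4. ASC1, which encodes a protein of the small subunit named outside the symbol rule and hosts a snoRNA in its intron, had 100% and 100% under Cbp20 peaks and 96.0% and 97.2% under Rnt1 peaks. These lists were not tested against the ribosomal protein genes.

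Past the 3′ end, genes with an intron had the shorter median reach within each list. Their median reach was 306 and 203 bp for Cbp20, and 246 and 264 bp for Rnt1, against 344 and 306 bp for Cbp20, and 285 and 310 bp for Rnt1, in genes without an intron. At 100 bp past the stop codon, 84 and 60 of 89 intron genes lay under a Cbp20 peak and 76 and 58 under a Rnt1 peak. Of the 48 genes without an intron, 46 and 45 did so for Cbp20, and 43 and 37 for Rnt1. A copies had shorter medians than B copies in each list, with 290 and 206 bp against 337 and 242 bp for Cbp20, and 222 and 204 bp against 274 and 309 bp for Rnt1. These medians are descriptions, and the neighbours downstream differ from gene to gene.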

How the data were processed

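Yeast cells with myc-tagged cap-binding complex or Rnt1 were assayed by ChIP-seq with an anti-myc antibody, 2 libraries each, and several immunoprecipitations were pooled per library. Per the study's methods, reads were aligned to sacCer3 with Bowtie2, uniquely mapped reads of high quality were kept, and MACS2 called peaks in each library. The deposited files hold the chromosome, start and end of each peak, as the authors called them, with no count, score or signal. Whether input was the background is not given in the sources used here. Chromosome lengths matched R64, whose RefSeq annotation (start to stop codon) gave the genes.

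The share of bases under peaks, peak edges and reach past each end (unclipped) were computed per library with Python 3.11, numpy 2.4.6 and scipy 1.17.1. Interval measures were tested on simulated data. A gene was called from an overlap of 1 bp. A 50-base window was unique if found once on both strands. The only test was a two-sided exact permutation over libraries. Named genes were the 10 highest and 5 lowest Rnt1 shares, the 5 widest pairs and intron-exon differences, the extremes of reach, snoRNA hosts and members with a non-coding gene within 500 bp, with ties broken by systematic name. Genes named outside this rule were chosen after their values were seen. Members and lists were chosen with earlier results of these data known. Alternatives kept the wider 50% of peaks, left out each replicate, genes near non-coding genes, genes under 90% unique, or genes with close neighbours, required 50% of the gene, or counted RPP1. The range of common lengths and the bare 5′ stretch were added after seeing the data. One gene named by the rule is not reported here.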

Additional observations from a re-analysis of the deposited data

Results flagged for a closer look

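The difference between large- and small-subunit genes in mean covered share was negative in both Cbp20 replicates, with a mean of -0.085 percentage points, and positive in both Rnt1 replicates, with a mean of 1.27 percentage points. It stands here because the libraries of the 2 proteins moved in opposite directions. The difference between the proteins was not tested, and both values are small beside the spread of shares among the genes.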

How the results depend on the processing

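No paired analysis was possible because the labels number only the second replicates. Of 109 recomputed values, 88 stayed in direction and, where a replicate spread was given, within it (counts within 1.5 times). Leaving out 1 of 2 replicates cannot move their mean by more than their SD. For means, those settings could therefore show only a change of sign. The Cbp20 minus Rnt1 difference in share had no replicate spread to be held against. Keeping only the wider 50% of peaks left 136 genes with a Cbp20 peak and 133 with a Rnt1 peak in both replicates, and requiring 50% of the gene left 137 and 130. With the wider peaks, the mean covered share was 99.56% for Cbp20 and its excess over other coding genes 77.0 percentage points. The same setting gave large minus small subunit 0.81 for Cbp20, a change of sign, and 1.65 for Rnt1, intron minus no intron 1.06 for Cbp20 and -6.78 for Rnt1, and A minus B copies -0.92 for Cbp20 and -1.87 for Rnt1. In genes of mostly unique sequence, large minus small subunit was -0.020 for Cbp20 and 0.52 for Rnt1, and intron minus no intron -0.062 for Cbp20, a change of sign. Without genes near a snoRNA, snRNA or tRNA gene, large minus small subunit was 2.93 and A minus B copies 0.66 for Rnt1, the second a change of sign, and the Rnt1 reach past the 5′ end was 56.3 bp. Among genes with no close neighbour at that end, the Rnt1 reach was 143 bp at the 5′ end and 290 bp at the 3′ end. Over lengths found in both classes, intron minus no intron was 0.13 for Cbp20. Leaving out each replicate in turn, intron minus no intron ranged from -0.013 to 0.042 for Cbp20, A minus B copies from -0.15 to 0.0017 for Cbp20 and from -1.19 to 0.83 for Rnt1, and intron minus exons from -0.019 to 0.15 for Cbp20. The cause of these changes was not tested. With 2 libraries a group, no height and no depth, a bare base may lie just under the authors' threshold.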
